A study of Mus musculus with 4 samples.

Results

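ABC transporters are membrane proteins built around an ATP-binding cassette, a domain that binds and hydrolyses ATP and in most members drives a substrate across a membrane. In the liver they load bile with phospholipid, sterol and conjugated organic anions, hand cholesterol to lipoproteins, and serve mitochondria and peroxisomes. The E and F subfamilies carry the cassette without a membrane-spanning part and act on ribosomes and translation instead. The genes described here are those whose deposited symbol is Abc followed by a subfamily letter from a to g and a number. There were 49 such genes among 27436 genes on the array, represented by 97 of its 41174 probes. They comprised 16 genes of subfamily A, 9 of B, 10 of C, 4 of D, 1 of E, 3 of F and 6 of G. Of the 97 probes, 86 listed RefSeq accessions of 1 gene, and that gene was the one of the deposited symbol. The other 11 listed no such accession, so their symbols were not checked in this way.

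RNA was taken from the livers of male C57Bl/6 mice at 3 months of age. The test group were Wrn mutants, mice with an altered form of the RecQ helicase that is lost in Werner syndrome, given 0.4% vitamin C in their drinking water from weaning onward. The reference group were untreated wild-type mice. On each of 4 two-colour arrays, a different treated mutant labelled with Cy5 was hybridised against a different wild-type animal labelled with Cy3. Neither untreated mutants nor treated wild-type mice were analysed here, and the dyes were never swapped, so genotype, vitamin C and dye cannot be told apart. The labels call the arrays biological replicates 1 to 4. They do not say what the mutation is. The brightest Wrn probe had a mean log2 ratio of 0.00 ± 0.02 (SD, n = 4), which checks nothing about the genotype labels, since it is not known whether the probe lies in the altered part of the gene.

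Between 82.5% and 96.1% of probes were well above background in a channel, the lowest 2 values being those of array 1. Values are log2 ratios of treated mutant over wild type on each array, after background correction and intensity-dependent (loess) normalization, and the test is limma's moderated test of the mean ratio against 0. A gene was called changed at a Benjamini-Hochberg adjusted p under 0.05 over all 26135 genes tested. Where a gene had several probes, the brightest stood for it. Abcb5 was not tested, because its probe was well above background on 0 of 4 arrays in either channel, which leaves 48 tested members and 94 usable probes. RNA came from whole liver, so fewer cells of a type and less RNA per cell cannot be told apart for any gene below.

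The sequences below are stretches of 30 of the 60 bases of probes that measured called genes, with the other probes of those genes, because probes of one gene often gave different values. They keep the base order of the deposited table but are printed in lower case, and the array design's name stands before each one.
Abcf1 A_51_P107234: tggtccctccttttggaagggtactactga
Abcf1 A_51_P476008: tgacgtttggctacgaggggcagaagcact
Abcc2 A_51_P277745: atttcttagttacttttgttcttgtgactg
Abcg5 A_51_P256902: cagcttgtggggcaatgtggtgcttggaca
Abca6 A_51_P477250: tccgtgatgactcctcatagtccagtctgg
Abca6 A_52_P508920: ctcagagtgaaggatgtttctcaagagcca
Abcc5 A_51_P116421: gtagaagttttttgtactgtaaagagacct
Abcc5 A_51_P116419: ttgttcttaattgcactcttaagaggttca
Abcc5 A_52_P628117: gctctttgaacatggtatctttaaatatat

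Of the 48 tested members, 6 passed the test, 5 lower and 1 higher in the treated mutants. The lower genes included Abcf1, Abcc2, Abcg5 and Abca6, and the higher gene was Abcc5. That is 12.5% of the members, against 12.2% of all genes tested, so the share called was near the background. The lower calls made up 10.4% of members against 5.57% of all genes, and the higher call 2.08% against 6.64%. No member reached a 1.5-fold mean difference, a size that 0.899% of all genes reached. The median ratio was -0.0031 over members and 0.0104 over all genes, and the median absolute ratio was 0.0826 against 0.0889. An unadjusted p under 0.05 was found for 12 members, or 25.0%, against 32.2% of all genes. Array by array, 25 of 48 were above 0 on arrays 1 and 2, 20 on array 3 and 19 on array 4. Across all 4 arrays, 6 members stayed above 0 (12.5%, against 23.5% of all genes) and 9 stayed below 0 (18.8%, against 16.7%).

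**Figure D1:**
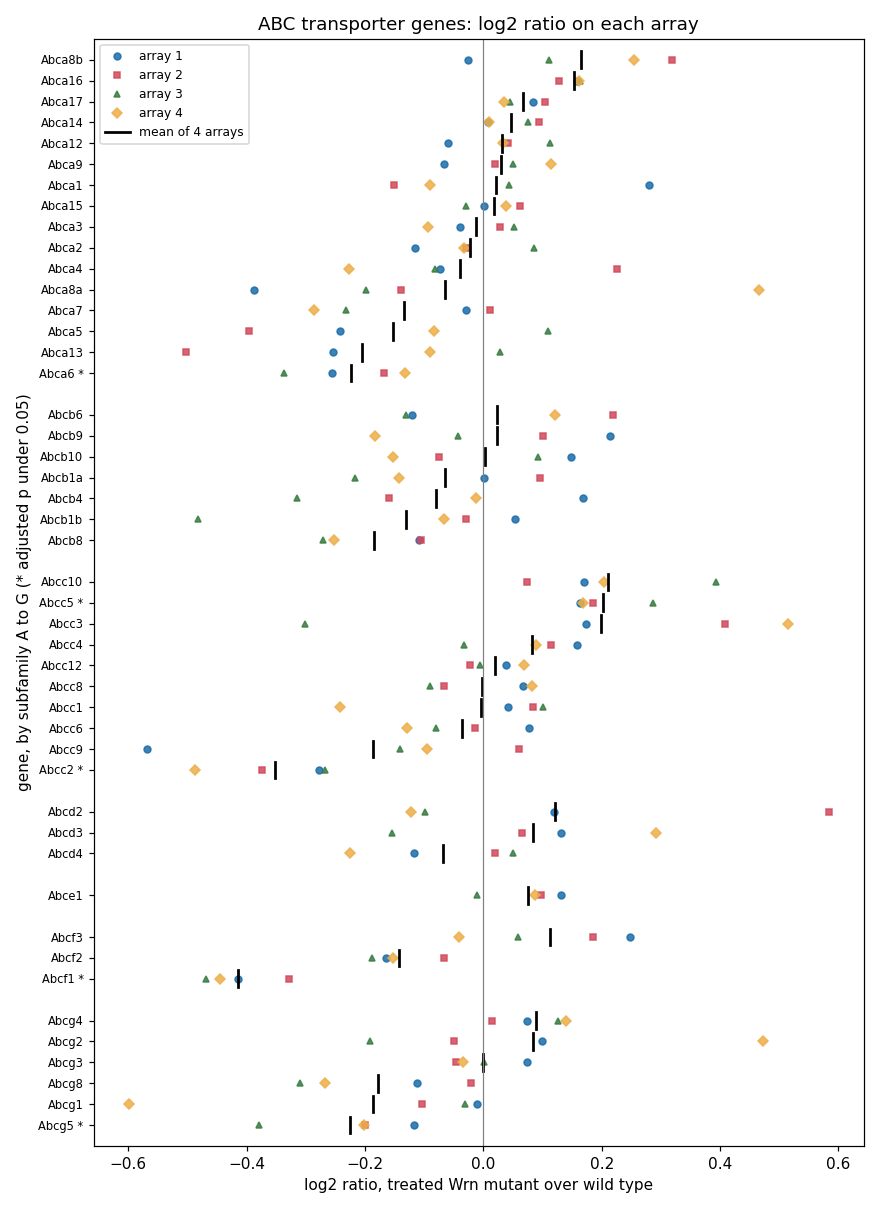
Log2 ratio of treated mutant over wild type (x axis) for 46 ABC genes (y axis), grouped by subfamily A to G. Coloured points are the 4 arrays, the black bar is their mean and an asterisk marks an adjusted p under 0.05; the means run from -0.41 for Abcf1 to 0.21 for Abcc10.

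Among the ribosome-bound members, Abcf1, which binds initiation factor eIF2 and ribosomes in translation initiation, was lower in the treated mutants on every array. Its log2 level in the mutants was 13.37, 13.44, 13.42 and 13.39 on arrays 1 to 4. In the wild types it was 13.79, 13.77, 13.89 and 13.84, and the groups did not overlap. The ratios of -0.41, -0.33, -0.47 and -0.45 gave a mean of -0.41 ± 0.06 (SD, n = 4; 95% interval -0.52 to -0.31), 1.33-fold higher in wild type, with a limma adjusted p of 0.0107. This was the smallest adjusted p of any member. The gene's other probe gave -0.11 ± 0.15, with an adjusted p of 0.293 over all probes. Why these 2 probes differed was not tested.
The 2 other members of subfamily F did not pass. Abcf2 had -0.14 ± 0.05 (adjusted p 0.075) and its mutant levels also lay wholly below the wild-type levels. Abcf3 had 0.25, 0.19, 0.06 and -0.04 on arrays 1 to 4, a mean of 0.11 ± 0.13 (adjusted p 0.234), while its other probe gave -0.24 ± 0.16 (0.053). The brightest and the other probe of Abcf3 therefore pointed in opposite directions, and neither passed. Abce1, which splits ribosomes after translation ends, had 0.13, 0.10, -0.01 and 0.09, a mean of 0.08 ± 0.06 (adjusted p 0.284), and passed as higher with median centring, at 0.21 (0.0389).

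Of the organic anion pumps in subfamily C, Abcc2 was lower. Abcc2 is the pump of the bile canaliculus that exports conjugated bilirubin and glutathione conjugates. The mutant log2 levels were 14.32, 14.13, 14.18 and 13.99, against 14.60, 14.51, 14.45 and 14.48 in wild type. All 4 mutant levels lay below all 4 wild-type levels. The ratios of -0.28, -0.37, -0.27 and -0.49 averaged -0.35 ± 0.10 (SD, n = 4; 95% interval -0.48 to -0.23), a level 1.28-fold higher in wild type, with a limma adjusted p of 0.0170. Its call was lost when each array was centred on its median in place of loess (-0.10, adjusted p 0.144).
Abcc5, a pump for cyclic nucleotides and other organic anions, was the only member called higher. Its mutant levels were 11.07, 10.58, 10.63 and 10.60 and its wild-type levels 10.91, 10.40, 10.34 and 10.43. These ranges overlapped because array 1 was bright in both channels, although each mutant lay above its own partner. The ratios of 0.16, 0.19, 0.29 and 0.17 averaged 0.20 ± 0.06 (SD, n = 4; 95% interval 0.10 to 0.31), with a limma adjusted p of 0.0356. Of the 2 remaining Abcc5 probes, A_51_P116419 had 0.18 ± 0.11 (adjusted p 0.071 among all probes tested) and A_52_P628117 had -0.09 ± 0.10 (0.269). Averaging all 3 probes gave 0.10, which did not pass (adjusted p 0.141).

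The remaining 8 members of subfamily C did not pass. Abcc3, the basolateral pump that returns conjugates from the hepatocyte to blood, had 0.17, 0.41, -0.30 and 0.51. It was high on 3 arrays and low on array 3, and its mean of 0.20 ± 0.36 (adjusted p 0.326) carried a 95% interval of -0.11 to 0.50. Abcc6, which hepatocytes need to release ATP and keep soft tissues free of mineral, had -0.04 ± 0.09 (adjusted p 0.648). Abcc9, a sulfonylurea receptor that serves as the regulatory subunit of potassium channels, had -0.57, 0.06, -0.14 and -0.10, so its mean of -0.19 ± 0.27 (adjusted p 0.239) was -0.06 without array 1. The channel subunits Kcnj8 and Kcnj11 that pair with such receptors had -0.07 ± 0.45 and -0.04 ± 0.12. Of these 2, 0 passed limma's test, adjusted or unadjusted, against 12.2% and 32.2% of all genes tested. Abcc10 had 0.21 ± 0.13, the highest mean of any member, with an adjusted p of 0.064. Its probe was dim, well above background on 3 mutant and 2 wild-type arrays. It was therefore kept only through the mutant channel, in which it was higher. The mean was 0.007 with median centring and 0.38 in the authors' deposited ratios. Abcc1, Abcc4, Abcc8 and Abcc12 lay between -0.00 and 0.08.

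Abcc1, an exporter of glutathione conjugates, gave different values by probe. Its brightest probe gave -0.00 ± 0.16, whereas the 2 others gave -0.21 ± 0.17 (adjusted p 0.089) and -0.24 ± 0.14 (adjusted p 0.049, which passed over all probes). Those 2 probes overlap in a run of 19 bases, in capitals below, so their similar values are not independent measurements.
Abcc1 A_52_P601688: cctacttatgagcatcgtttcgtggagaag
Abcc1 A_52_P491508: tgtggtgcaccCTCTGAGCTCCTGCAGCAA
Abcc1 A_52_P491507: CTCTGAGCTCCTGCAGCAAagaggcatctt

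**Figure D2:**
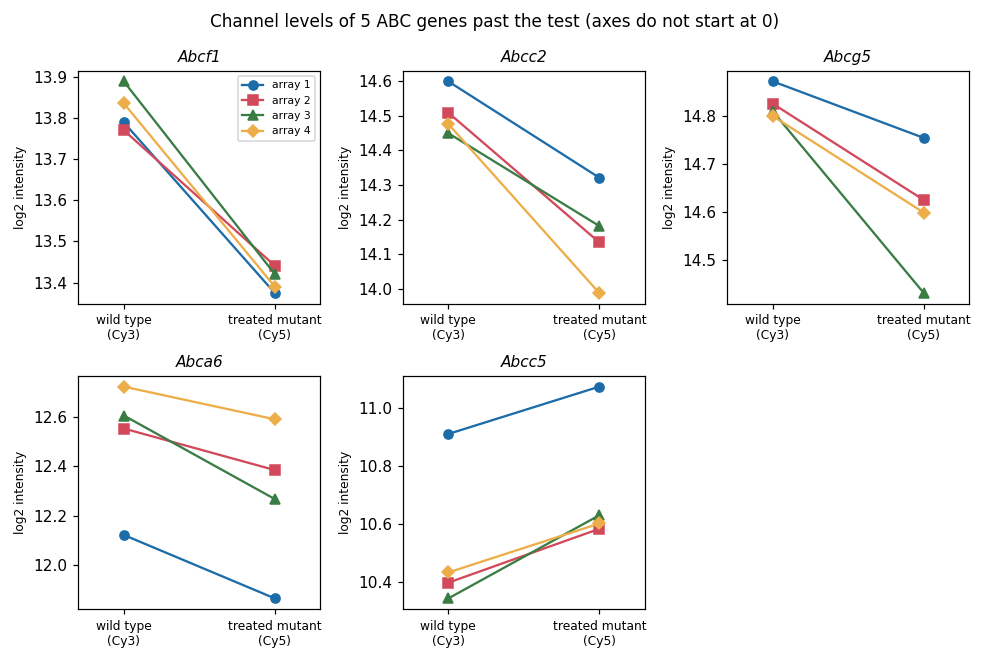
Log2 intensity of 5 called ABC genes in the wild-type (Cy3) and treated mutant (Cy5) channel of each array, with a line joining the 2 animals of an array. Each line falls for Abcf1, Abcc2, Abcg5 and Abca6 and rises for Abcc5; the axes do not start at 0.

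Subfamily B contains mitochondrial, canalicular and drug exporters. The members of it described here did not pass. Abcb8, a mitochondrial exporter, had -0.18 ± 0.09 (adjusted p 0.056), and its mutant levels lay wholly below the wild-type levels. Abcb10, a mitochondrial exporter that takes part in heme synthesis, had 0.00 ± 0.14 (0.977).
Abcb4, the canalicular flippase that supplies phosphatidylcholine to bile, had 0.17, -0.16, -0.31 and -0.01, a mean of -0.08 ± 0.21 (adjusted p 0.531; 95% interval -0.27 to 0.11). The arrays disagreed in sign. When arrays were centred on their median instead of by loess, the gene passed as higher, at 0.39 (adjusted p 0.0296). Abcb6, a porphyrin transporter, had -0.12, 0.22, -0.13 and 0.12 (mean 0.02 ± 0.18, adjusted p 0.854). The P-glycoprotein genes Abcb1a and Abcb1b, which pump many drugs, had -0.07 ± 0.14 (0.503) and -0.13 ± 0.24 (0.352). For Abcb1b the mean rested on array 3, at -0.48, and was -0.01 without it. Abcb9, a lysosomal peptide transporter, had 0.02 ± 0.17.

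Of the sterol transporters in subfamily G, Abcg5 was lower. Abcg5 and Abcg8 are obligate partners that excrete sterols into bile. The Abcg5 mutant levels were 14.75, 14.63, 14.43 and 14.60, and the wild-type levels were 14.87, 14.83, 14.81 and 14.80. The wild-type animals lay within a narrow band above all the mutants. Its ratios of -0.12, -0.20, -0.38 and -0.20 averaged -0.22 ± 0.11 (SD, n = 4; 95% interval -0.35 to -0.10), with a limma adjusted p of 0.0441. This call was lost in 11 of 18 alternative analyses, and median centring gave 0.067 (adjusted p 0.533). Its partner Abcg8 had -0.11, -0.02, -0.31 and -0.27, a mean of -0.18 ± 0.14 (adjusted p 0.096), again with no overlap between groups, but its other probe gave 0.07 ± 0.08 (0.378).
Abcg8 A_52_P179925: acacggtggcaaagacaaatccagttgtct
Abcg8 A_51_P298480: ttgcagccctgttcctagaaaaagtacaag
Here too the brightest probe and the other probe had opposite signs. Abcg2, an exporter of urate and drugs, had 0.10, -0.05, -0.19 and 0.47 (mean 0.08 ± 0.29, adjusted p 0.620) and -0.05 without array 4. Abcg1, which moves cholesterol towards high density lipoprotein, had -0.01, -0.10, -0.03 and -0.60 (mean -0.19 ± 0.28, adjusted p 0.251). Its mean was -0.05 without array 4, so array 4 supplied most of it. Abcg4 had 0.09 ± 0.06 (0.216) and Abcg3 -0.00 ± 0.05 (0.986).

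In subfamily A, whose best-known members move lipids, 1 of 16 members passed, against 12.2% of all genes tested. Abca6, one of the A6-like genes that lie in a row, had mutant levels of 11.87, 12.38, 12.27 and 12.59 against wild-type levels of 12.12, 12.55, 12.60 and 12.72. The groups overlapped, although every mutant lay below its own partner. The ratios of -0.26, -0.17, -0.34 and -0.13 averaged -0.22 ± 0.09 (SD, n = 4), with a limma adjusted p of 0.0377. Its other probe gave -0.10 ± 0.19 (0.400), and the mean of its probes did not pass (-0.16, adjusted p 0.113).
Abca1, which loads cholesterol and phospholipid onto apolipoprotein A-I, had 0.28, -0.15, 0.04 and -0.09 (mean 0.02 ± 0.19, adjusted p 0.874). It passed as higher with median centring, at 0.26 (limma adjusted p 0.0306). Abca3, known for surfactant lipid in lung, had -0.01 ± 0.07 (0.864). Abca8a had -0.39, -0.14, -0.20 and 0.47, a mean of -0.06 ± 0.37 (0.764), or -0.24 without array 4. Abca16 had the tightest values of these genes, 0.15 ± 0.02 with an adjusted p of 0.053, and passed in 5 of 18 alternatives. The other members ranged from -0.21 ± 0.23 for Abca13 to 0.16 ± 0.15 for Abca8b, with Abca5 at -0.15 ± 0.22 and Abca7 at -0.13 ± 0.15; Abca2, Abca4, Abca9, Abca12, Abca14, Abca15 and Abca17 lay between -0.04 and 0.07.

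The 4 peroxisomal and lysosomal members of subfamily D did not pass, the smallest limma adjusted p being 0.458. Of these 4, 0 had an unadjusted p under 0.05, against 32.2% of all genes tested. Abcd3, which imports acyl substrates into peroxisomes, had 0.13, 0.07, -0.16 and 0.29 (mean 0.08 ± 0.19). The other 2 probes of Abcd3 averaged -0.20 ± 0.28 and -0.08 ± 0.30, below 0 where the brightest was above. The brightest passed at 0.58 under median centring. Abcd4, which serves cobalamin release from lysosomes, had -0.07 ± 0.13. Abcd2, a peroxisomal importer of fatty acids, had 0.12, 0.58, -0.10 and -0.12, and -0.03 without array 2.

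The groups of 4 mutant and 4 wild-type levels did not overlap for 7 of 48 members, all lower in the mutants, Abcb8, Abcc2, Abcf1, Abcf2, Abcg5 and Abcg8 among them. That is 14.6% of members, against 4.19% of all genes tested. The opposite arrangement, all mutant levels above all wild-type levels, was seen for 0 members and for 3.28% of all genes. These levels carry the loess ratios, and the count was not repeated with median centring. Under median centring the mean ratios were -0.24 for Abcf1, -0.14 for Abcb8 and for Abcg8, -0.10 for Abcc2, -0.06 for Abcf2 and 0.067 for Abcg5. For the 42 members that did not pass, the 95% interval of the ratio lay within 1.5-fold in either direction for all 42 and within 1.2-fold for 27. The widest bounds were -0.43 and 0.50.

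Probes of one gene often disagreed. Of the 31 members with several usable probes, 19 had probe means of 1 sign and 12 had both signs, and the median range between probes of a gene was 0.0755. The widest ranges were 0.42 for Abca13, 0.36 for Abcf3, 0.35 for Abca5 and 0.31 for Abcf1. Of the 94 usable member probes, 9 passed over all probes (9.57%, against 13.0% of the 39080 probes tested), and 6 of these stood for a gene. The other 3 belonged to Abca13 (0.22 ± 0.04, adjusted p 0.027), Abca5 (0.20 ± 0.08, adjusted p 0.045) and Abcc1. The passing probe of Abca13 and that of Abca5 were higher in the mutants, whereas the brightest probes of both genes had negative means. Among the 4 called members with several usable probes, 0 had a second probe that passed.

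**Figure D3:**
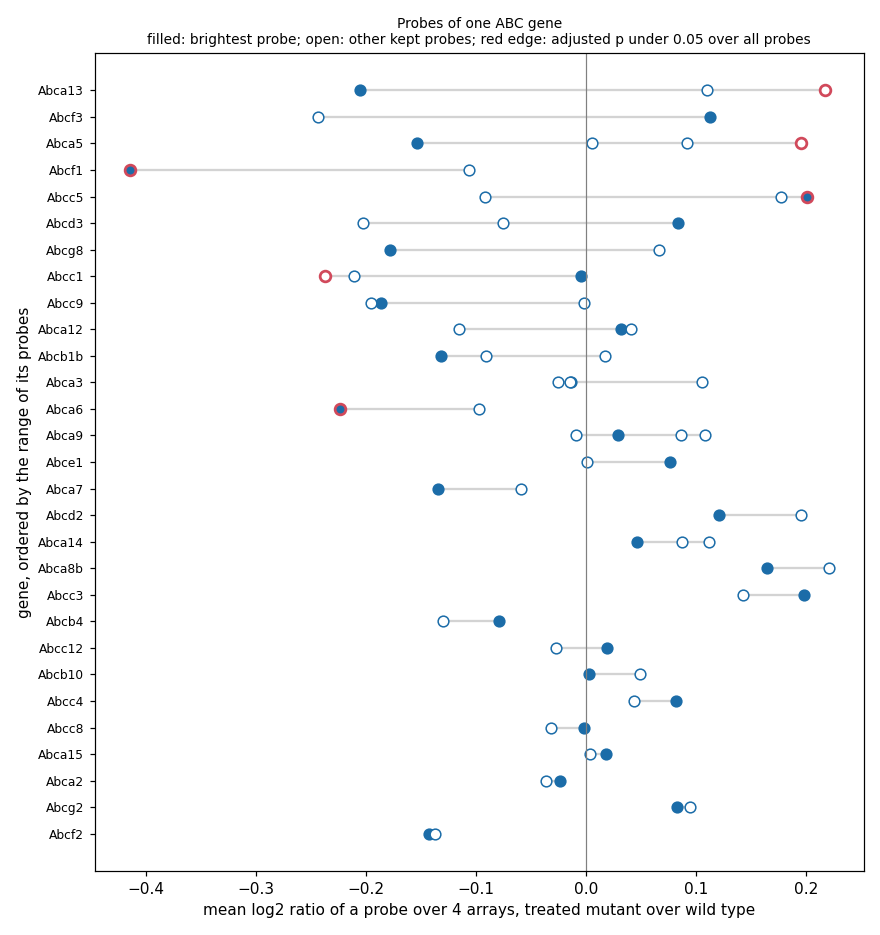
Mean log2 ratio (x axis) of every usable probe of 29 ABC genes with several, ordered by the range between probes. Filled circles are the brightest probe, open circles the others and a red edge marks an adjusted p under 0.05 over all probes; 11 of the 29 genes have probes on both sides of 0.

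Some members lie side by side in the genome. In the RefSeq gene order of GRCm38.p6, all 49 members were found and 15 of them formed 10 neighbouring pairs. The run Abca8b, Abca8a, Abca9, Abca6 and Abca5 had ratios of 0.16, -0.06, 0.03, -0.22 and -0.15, of which Abca6 alone passed. Abcg5 and Abcg8 had -0.22 and -0.18. Abcb1a, Abcb1b and Abcb4 had -0.07, -0.13 and -0.08, and Abca14, Abca15 and Abca16 had 0.05, 0.02 and 0.15. Abca17 and Abca3 had 0.07 and -0.01. The means shared a sign within the Abcg5, Abcb1a and Abca14 runs and did not in the others.

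Genes that work with ABC transporters were examined in 9 lists. Of 88 tested genes, 19 passed, 9 higher and 10 lower, which is 21.6% against 12.2% of all genes. Their median ratio was -0.05 against 0.0104 over all genes. The balance of directions depended on the normalization: with median centring in place of loess, 22 partner genes were higher and 3 lower.
Among 16 regulators, Hnf4a, a hepatocyte transcription factor, was lower at -0.25 ± 0.10 (limma adjusted p 0.030), and Ppara, the fatty acid receptor that controls peroxisomal genes, at -0.21 ± 0.10 (0.047), which turned to 0.17 under median centring. Of the 16 regulators, 2 thus passed lower and 0 higher, against 5.57% and 6.64% of all genes. The list's median was -0.11. Of 13 tested uptake and export carriers, Slc47a1, an exporter of organic cations, was higher at 0.40 ± 0.22 and Slc27a5, the bile acid CoA ligase, at 0.19 ± 0.06, which was -0.054 with the scanner software's processed signals. The carnitine carrier Slc22a5 was lower at -0.48 ± 0.18, and 10 carriers did not pass.
Of 12 lipoprotein partners of sterol export, 3 were higher: the apolipoproteins Apoa2 at 0.84 ± 0.18, Apoe at 0.73 ± 0.17 and Apoc3 at 0.32 ± 0.15. The lysosomal cholesterol exporter Npc1 was lower at -0.27 ± 0.03 and Scarb1, the high density lipoprotein receptor, at -0.31 ± 0.15. Of the peroxisomal partners of subfamily D, the protein import receptor Pex5 had -0.19 ± 0.14 (adjusted p 0.090) and the membrane assembly factor Pex16 -0.20 ± 0.16 (0.091), and neither passed.
Of 14 mitochondrial heme and iron-sulfur genes, Glrx5, an iron-sulfur assembly protein, was higher at 0.36 ± 0.09. The heme synthesis enzyme Alad was lower (-0.28 ± 0.15, but 0.028 under median centring). Of 9 ribosome partners of subfamilies E and F, 0 passed limma's test at an adjusted p under 0.05, against 12.2% of all genes. An unadjusted p under 0.05 was found for 4 of the 9, against 32.2% of all genes. The smallest adjusted p values were those of the release factor Etf1 (-0.20 ± 0.12, 0.057) and of Pelo (-0.27 ± 0.23, 0.082).
Tap1, an ABC peptide pump that carries another kind of symbol, was higher at 0.25 ± 0.12 (0.040), while its partner Tap2 had -0.12 ± 0.25 (0.421) and the chloride channel Cftr -0.13 ± 0.02 (0.081). In the list of 9 antigen loading genes, which also holds Tap1 and Tap2, the class I gene H2-K1 was higher at 0.29 ± 0.13, and Calr (-0.56 ± 0.19), Pdia3 (-0.47 ± 0.31) and Erap1 (-0.22 ± 0.07) were lower.

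**Figure D4:**
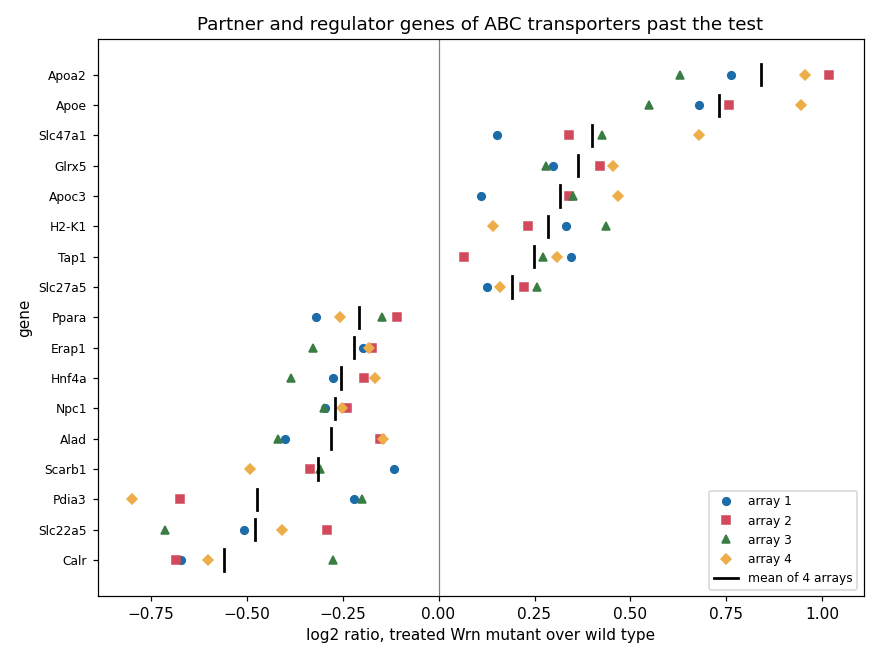
Log2 ratio on each of the 4 arrays (points) and the mean (black bar) of 17 partner and regulator genes past the test, ordered by the mean. The lowest mean is Calr at -0.56 and the highest Apoa2 at 0.84.

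Markers of the cell types of the liver were measured beside these genes. A summed level is the log2 of the added intensities of a list's tested markers, so the brightest markers weigh most. Hepatocyte markers passed in both directions, 3 of 5 higher (Apoa2, Alb at 0.85 and Ttr at 0.46) and Hnf4a lower. The summed level of the hepatocyte markers was 19.79 to 19.94 in the mutants and 19.14 to 19.37 in wild type. Cholangiocyte markers were lower for 2 of 6 (Spp1 at -0.63 and Sox9 at -0.58), with summed levels of 13.68 to 13.91 against 14.13 to 14.50. Sinusoidal endothelial markers were lower for 2 of 6 (Kdr at -0.24 and Clec4g at -0.35; 15.17 to 15.29 against 15.38 to 15.63), and 1 of 6 stellate markers, Col1a1, was lower (15.75 to 15.89 against 15.67 to 16.03). Of the 6 Kupffer cell, 6 erythroid, 6 neutrophil and 6 lymphocyte markers, 0 passed limma's test at an adjusted p under 0.05, and 0, 0, 1 and 1 had an unadjusted p under 0.05. Of all genes tested, 12.2% were called, 6.64% higher and 5.57% lower, and 32.2% had an unadjusted p under 0.05. Each marker tested was well above background on at least 3 arrays in both channels. The wild-type liver of array 4 stood apart in the acute phase list, whose summed level was 21.41 there against 18.22 to 19.32 in the other wild types and 18.17 to 18.47 in the mutants. The same liver was highest in the summed Kupffer cell markers, at 16.37 against 15.67 to 15.76 in the other wild types and 15.49 to 15.96 in the mutants. It was also highest in the summed neutrophil markers, at 11.96 against 11.40 to 11.51 and 11.20 to 11.47. In the acute phase list 3 of 6 genes passed lower (Saa1, Saa2 and Saa3). Saa1, an acute phase protein of hepatocytes, had ratios of -0.97, -2.42, -2.34 and -4.19, and Lcn2 of -0.35, -0.83, -0.12 and -3.20. The array whose ratio lay farthest from the others differed between ABC members. It was array 4 for Abcg1, Abcg2 and Abca8a, array 1 for Abcc9, array 2 for Abcd2 and array 3 for Abcb1b. Among the called members named here, it was array 2 for Abcf1, array 4 for Abcc2 and array 3 for Abcc5, Abca6 and Abcg5. The part of these markers in the ABC results was not tested.

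The direction of the calls depended on normalization. With loess, 1736 genes were higher and 1456 lower, and the ABC calls were 1 higher and 5 lower. With median centring, 3418 genes were higher and 1512 lower, and the ABC calls were 5 higher and 2 lower, Abcf1 being among the lower. The share of higher calls among all calls was 54.4% with loess, 69.3% with median centring and 40.8% with the scanner software's processed signals. Between loess and median centring, 11 of 48 members changed sign. The shift was 0.50 for Abcd3 and -0.23 for Abca4, with a median of 0.09 over the 24 brighter members and 0.00 over the 24 dimmer ones. In the authors' deposited table, Abcf1 had -0.41 with an adjusted p of 0.0194 and Abcc2 -0.35 with 0.0265. That deposited table gave adjusted p values of 0.0508 for Abcc5, 0.0546 for Abca6 and 0.0606 for Abcg5. Of these 5 genes, Abcf1 and Abcc2 were therefore past 0.05 both in the authors' own test and in the present one. The deposited ratios were also put through the limma test and gene set used here. Abcc5 (adjusted p 0.0424) and Abca6 (0.0457) then passed, and Abcg5 (0.0516) did not.

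**Figure D5:**
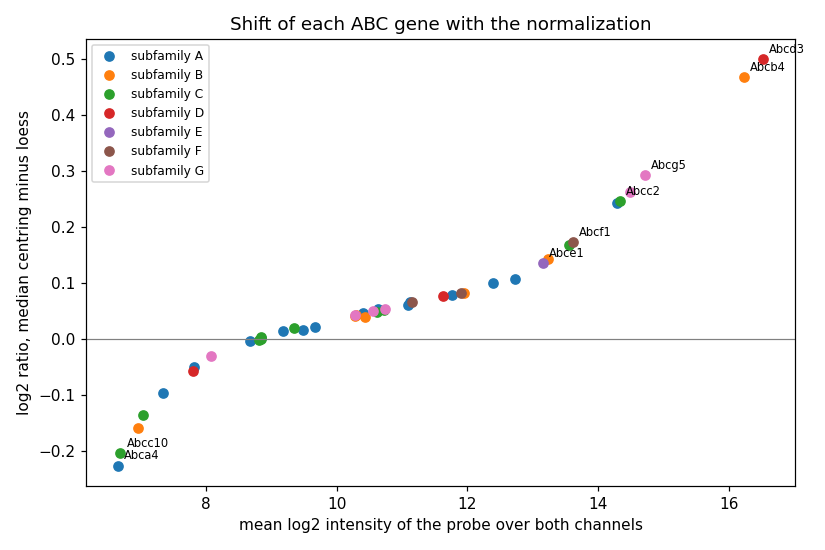
Difference in log2 ratio between median centring and loess (y axis) against the mean log2 intensity of the probe (x axis) for 46 ABC genes, coloured by subfamily. Points above 0 have a higher ratio with median centring; Abcd3 is highest at 0.50 and Abca4 lowest at -0.23.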

How the data were processed

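The 49 genes, the partner lists, the marker lists and the tests were chosen with earlier results of these data known. Some genes of the family and of the lists are counted but not reported here by name, and 1 ABC gene that matches the symbol rule was left out. Median spot and local background intensity, Agilent's processed signal and its log10 ratio were deposited per array from Feature Extraction 10.5.1.1, per the file headers. The authors' table held log2 ratios per array, their mean, and p-values with further limma score columns, and the submitters' processing notes name limma, with no version given. Its ratios matched background subtraction with loess.

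Here median intensities were corrected with normexp (offset 50) and loess in limma 3.58.1 (R 4.3.3), with control spots at weight 0 and outlier spots left out. Spots of a probe were averaged. A probe was kept if well above background in 1 channel on at least 3 arrays. The brightest kept probe stood for a gene. Each array pairs 1 mutant with 1 wild-type animal, so the ratio carries the replicate block, and lmFit and eBayes tested it against 0. Channel levels were scaled between arrays by Aquantile and are open to dye bias without swaps. With those exceptions, named were every called member, the 3 brightest others of each subfamily, the remaining members by mean, up to 3 called genes per direction of each partner list, and every other probe of a called member. The number of arrays limits the precision. The fit was tested on simulated data, and alternatives covered background, normalization, filter, probe choice, naming, moderation, pairing and each array left out. There were 0 columns without a sample.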

Additional observations from a re-analysis of the deposited data

Results flagged for a closer look

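In 65 genes with 4 ratios each, 3 had 1 array whose gap to the nearest other exceeded Dixon's 95% critical share of the range. Chance alone flags about 1 group in 20. Array 4 gave -0.60 for Abcg1, against -0.10 to -0.01 on the others. Array 2 gave 0.13 for Abca16, where the other 3 lay at 0.16. Array 3 gave -0.33 for Erap1, against -0.20 to -0.17.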

How the results depend on the processing

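The 48 members gave 6 calls, all genes 3192 and the partner lists 19. Leaving out each array in turn gave 0 to 2, 19 to 1340 and 0 to 9 (array 1: 1, 503 and 5; array 2: 0, 19 and 0; array 3: 2, 1340 and 9; array 4: 1, 461 and 5). Without array 2, 13 members and 37 partner genes had an unadjusted limma p under 0.05, and the share over all genes was not counted there. At an adjusted p under 0.01, limma gave 0, 91 and 3 calls. In that fit 12 members had an unadjusted p under 0.05, or 25.0%, against 32.2% of all genes. With no replicate block (channels unpaired), limma gave 0, 24 and 2, with 6 members at an unadjusted p under 0.05. The share over all genes was not counted for that setting either. The scanner software's processed signals gave 2, 754 and 6, and median centring 7, 4930 and 25. Median centring reversed Abcb4 (0.39), Abcg5 (0.067), Alad (0.028) and Ppara (0.17), and processed signals reversed Slc27a5 (-0.054). The causes were not tested. Of 18 alternatives, the calls of Abcf1, Abcc2, Abcc5, Abca6 and Abcg5 were lost in 3, 7, 8, 9 and 11. Of 42 members not past, 35 passed in none of them. Requiring signal in both channels on all 4 arrays left 44 members.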
